A study of Arabidopsis thaliana with 6 samples.

Results

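The maturation program of the Arabidopsis seed is run by a small set of transcription factors, of which 7 activators and 3 repressors were followed here while germinated seeds were incubated in polyethylene glycol (PEG). The 10 genes were chosen by locus name, and all of them were on the array, among 27981 loci in all. They had 13 of the 35986 features, where a feature is the value given to 1 gene model. PEG lowers the water potential of the solution and so withholds water, and germinated seeds incubated in it regain desiccation tolerance (DT). In the PEG group, 3 arrays were made from Col-0 seeds at radicle protrusion that had been kept for 72 h in PEG at -2.5 MPa, in the dark at 20 °C. In the untreated group, 3 arrays were made from Col-0 seeds frozen at radicle protrusion, after germination at 22 °C under constant white light. Osmotic stress, darkness, time and temperature therefore cannot be told apart. Each array stands for a separate pool of whole seeds, and fewer cells that express a gene cannot be told apart from less RNA per cell.

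ABI3, FUS3 and LEC2 are the B3-domain activators of maturation, and they bind the RY element in the promoters of storage protein, oleosin and LEA genes. LEC1 and its close relative L1L (NF-YB6) are seed forms of the NF-YB subunit of a CCAAT-binding complex, and LEC1 stands upstream of the B3 activators. ABI4 and WRI1 belong to the AP2 family. ABI4 takes part in the ABA and sugar responses of seeds and seedlings, and WRI1 switches on glycolysis and fatty acid synthesis when oil is stored. After germination the program is shut down by VAL1 (HSI2) and VAL2 (HSL1), B3-domain proteins that bring Polycomb and histone deacetylase complexes to the same RY elements, and by PKL, a CHD-type chromatin remodeler. ABI3 is also known for its role in DT, and the question put to these arrays was which of these regulators had a different transcript level once seeds had been in PEG.

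The authors deposited log2 expression values, and in the comparison values under 4 were set to 4, the floor that the methods of the study give. A gene passed the test where its p, adjusted after Benjamini-Hochberg over the whole table (limma), was no higher than 0.01. It was called where the log2 fold change was also at least 2 in size. Array medians lay between 4.81 and 4.97, and 38.2 to 41.6 % of the features of an array lay under 4. Within a group the arrays correlated over the features with a Pearson's r of 0.982 to 0.992, and across the groups with 0.898 to 0.924. For a single gene, the lowest two-sided p that an exact permutation test allows with 3 arrays a side is 0.1, and ABI3, L1L and VAL1 had it.

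None of the 10 regulators passed the test with limma, and none was called, whereas 15.7 % of all features passed and 2.75 % were called. At an unadjusted p under 0.05 stood 2 of the 10, ABI3 and VAL1, against 38.2 % of all features. The adjusted p of these 2 genes was under 0.05 with higher levels in PEG, as it was for 14.6 % of all features with higher levels and for 29.9 % in either direction. The PEG arrays all lay above the untreated arrays for 3 regulators, namely ABI3, L1L and VAL1, and for no regulator did they all lie below. Over all features these shares were 23.6 and 25.9 %. With 3 of 10, the regulators are thus near this background.

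**Figure D1:**
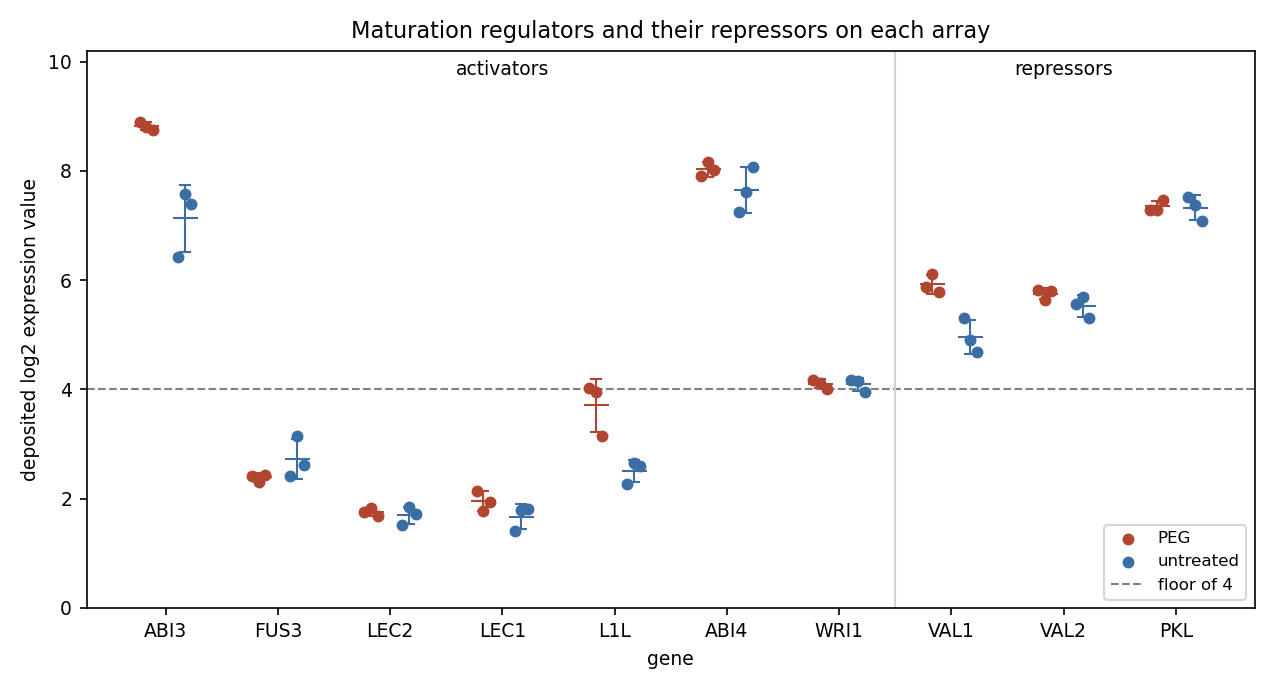
Deposited log2 expression values (vertical axis) of the 10 regulators on each array, with the 3 PEG arrays left of the 3 untreated arrays for each gene. Bars give the mean and SD, and the dashed line is the floor of 4. ABI3 (PEG 8.75 to 8.90, untreated 6.43 to 7.57) and VAL1 (PEG 5.79 to 6.12, untreated 4.69 to 5.30) lie apart above the floor, and FUS3, LEC2 and LEC1 lie under it on all 6 arrays.

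ABI3 (AT3G24650), the B3 activator that carries the ABA response in seeds, had the largest difference of the 10. Its log2 expression values were 8.90, 8.80 and 8.75 in PEG, against 6.43, 7.57 and 7.39 in untreated seeds. The groups did not overlap, and the PEG arrays lay close together while untreated replicate 1 was far below the other untreated arrays. The means were 8.82 ± 0.07 in PEG and 7.13 ± 0.61 in untreated seeds (SD, n = 3 each). The log2 fold change was 1.69 (SE 0.34, 95 % interval 0.77 to 2.61), a 3.22-fold higher level, with an adjusted p of 0.027 (limma, Benjamini-Hochberg). It thus missed the limit of 0.01.

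This verdict differed between settings. On all 6 arrays, 12085 features (33.6 %) did not exceed 4. These had no spread once the floor was set, and they enter the estimate of the spread that all features share. Without the floor, ABI3 had the same log2 fold change of 1.69 and an adjusted p of 0.0014. With the floor kept but only the 22468 features that lay above 4 on at least 3 arrays, the adjusted p was 0.00046. It was 0.00015 to 0.0021 when 1 array was also left out (a setting added with the values known). With the floor on all features and without untreated replicate 1, the log2 fold change was 1.34 and the adjusted p 0.0064, so that ABI3 passed. Leaving out any of the other 5 arrays gave 1.65 to 1.91 with an adjusted p of 0.038 to 0.089.

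FUS3 (AT3G26790), LEC2 (AT1G28300) and LEC1 (AT1G21970) were under 4 on every array of both groups, a state that 33.6 % of all features shared. Deposited log2 values of FUS3 were 2.42, 2.30 and 2.44 in PEG, against 2.42, 3.14 and 2.62 in untreated seeds. For LEC2, the factor that can start embryo formation in vegetative tissue when expressed there, they were 1.75, 1.83 and 1.68 in PEG, against 1.52, 1.84 and 1.72 in untreated seeds. LEC1 had 2.14, 1.78 and 1.93 in PEG, against 1.40, 1.79 and 1.81 in untreated seeds. In each of the 3 genes the groups overlapped, and a fold change between values of this kind has no meaning. Without the floor, adjusted p was 0.24 for FUS3, 0.81 for LEC2 and 0.26 for LEC1 (limma, Benjamini-Hochberg).

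L1L (AT5G47670), the relative of LEC1 that acts later in embryo development, stood between these genes and the measured ones. Its log2 values were 4.02, 3.95 and 3.15 in PEG, against 2.27, 2.65 and 2.60 in untreated seeds. All PEG arrays lay above all untreated arrays, but only PEG replicate 1 was over the floor. With the floor, the log2 fold change was therefore 0.01 (adjusted p = 0.63, limma), and without the floor it was 1.20 (SE 0.25, 95 % interval 0.64 to 1.76, adjusted p = 0.0045). The gene model AT5G47670.2 gave 0.95 without the floor (adjusted p = 0.015). L1L shares ground with 2 protein-coding neighbours in the TAIR10.1 gene table, and signal from these could not be told apart.

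ABI4 (AT2G40220) had log2 values of 7.90, 8.17 and 8.01 in PEG, against 7.25, 7.62 and 8.08 in untreated seeds. Untreated replicate 3 lay within the range of the PEG arrays, and the difference of 0.37 (SE 0.24, 95 % interval -0.28 to 1.03, limma adjusted p = 0.39) was smaller than the untreated SD of 0.42. With 1 array left out, it was 0.18 without untreated replicate 1 and 0.59 without untreated replicate 3, and did not pass in either case. WRI1 (AT3G54320) lay on the floor in both groups, with 4.18, 4.12 and 4.01 in PEG, against 4.17, 4.15 and 3.95 in untreated seeds. Its log2 fold change was -0.01 (95 % interval -0.19 to 0.18), and gene models 2 and 3 of WRI1 had identical values, so that they are 1 measurement.

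**Figure D2:**
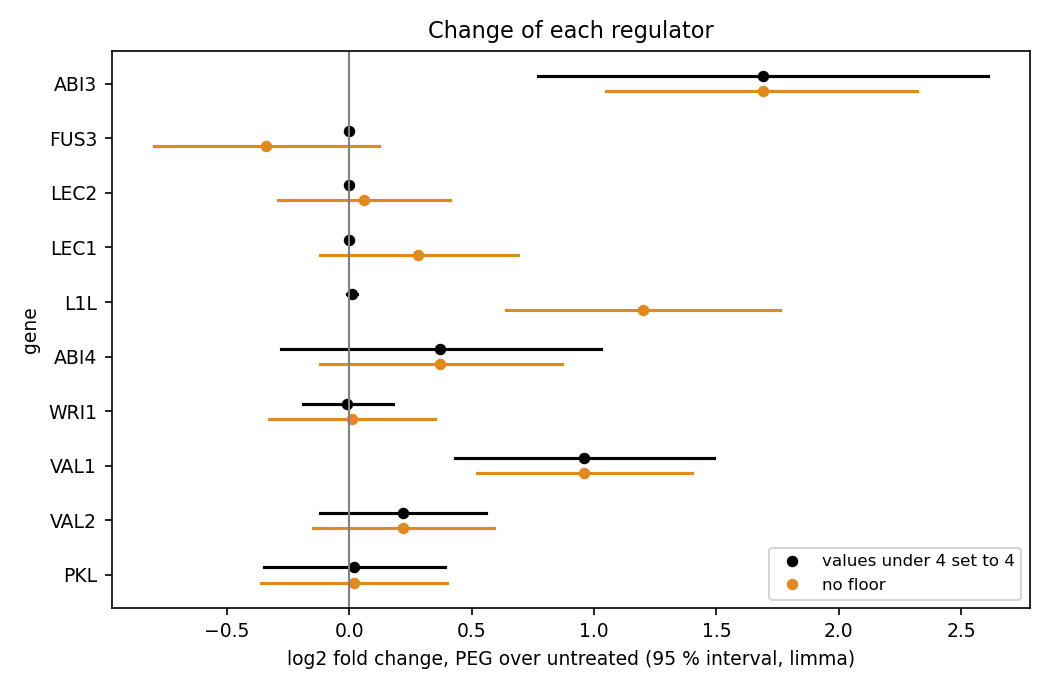
Log2 fold change of PEG over untreated seeds (horizontal axis) for each regulator, with 95 % intervals from limma. Black points were fitted with values under 4 set to 4 and orange points without the floor. ABI3 (1.69) and VAL1 (0.96) have intervals above 0 in both fits, whereas L1L has 0.01 with the floor and 1.20 without.

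Among the repressors, VAL1 (AT2G30470) had the only difference that stood clear of the spread. Its log2 values were 5.87, 6.12 and 5.79 in PEG, against 5.30, 4.90 and 4.69 in untreated seeds, with no overlap between the groups. The means were 5.92 ± 0.17 in PEG and 4.96 ± 0.31 in untreated seeds (SD, n = 3 each). The log2 fold change was 0.96 (SE 0.20, 95 % interval 0.43 to 1.49), a 1.95-fold higher level, with an adjusted p of 0.027 (limma, Benjamini-Hochberg), which missed the limit. Like ABI3, VAL1 passed without the floor (adjusted p = 0.0043) and with the filter on low values (0.0013). With the floor on all features it did not pass whichever array was left out (0.022 to 0.088). With the filter it passed each time (0.0006 to 0.0061).

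VAL2 (AT4G32010), the closest relative of VAL1, had log2 values of 5.82, 5.63 and 5.80 in PEG, against 5.57, 5.70 and 5.31 in untreated seeds. The groups overlapped, with a log2 fold change of 0.22 (SE 0.13, 95 % interval -0.12 to 0.56, limma adjusted p = 0.31), which was 0.11 without untreated replicate 3. PKL (AT2G25170) had log2 values of 7.29, 7.29 and 7.47 in PEG, against 7.52, 7.38 and 7.08 in untreated seeds. Its log2 fold change was 0.02, and the 95 % interval of -0.35 to 0.39 holds changes in both directions. Whether the change of VAL1 differs from that of VAL2 was not tested. In the TAIR10.1 gene table, VAL2 overlaps 1 other gene and PKL 3.

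With the filter on low values, 6 of the 10 regulators could be tested, and 2 of these, ABI3 and VAL1, passed with higher levels in PEG. In that fit 22.2 % of the features passed with higher levels and 46.0 % in either direction. Where a log2 fold change of at least 1 was also required, only ABI3 remained of the 6, against 9.76 % of the features with higher levels and 22.4 % in either direction. Without the floor 3 of 10 passed with higher levels (ABI3, L1L and VAL1), against 11.6 % of the features, or 26.7 % in either direction. Among the 5 regulators that lay above 4 on all 6 arrays, the log2 fold change ran from ABI3 (1.69) over VAL1 (0.96), ABI4 (0.37) and VAL2 (0.22) to PKL (0.02). The 95 % intervals of each neighbouring pair in this order overlap.

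**Figure D3:**
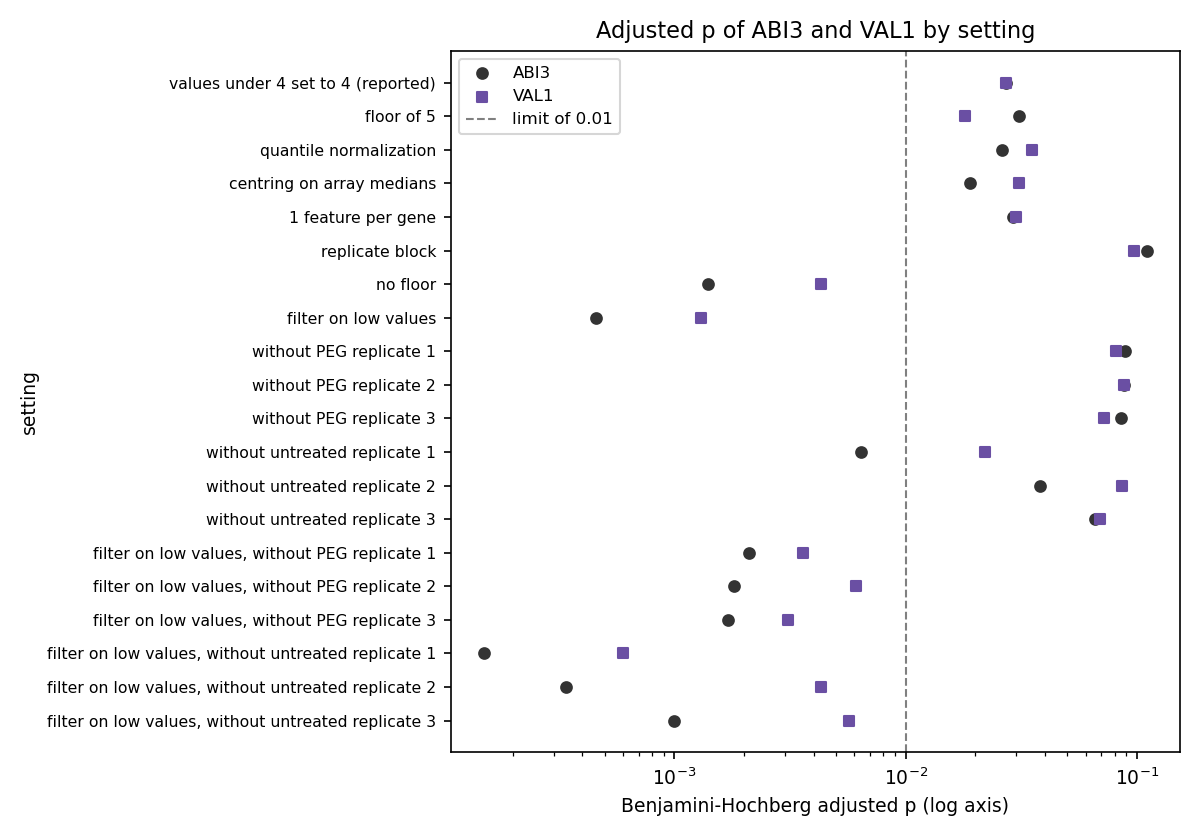
Benjamini-Hochberg adjusted p from limma (horizontal log axis) of ABI3 (circles) and VAL1 (squares) in each setting (vertical axis), with the limit of 0.01 as a dashed line. Both genes lie left of the limit without the floor and in all fits with the filter on low values. The fits with the filter kept the floor. With the floor and no filter, ABI3 passes in the fits drawn only without untreated replicate 1 (0.0064). The trended and robust prior, in which both passed, is not drawn.

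Untreated replicate 1 had the lowest untreated value in 6 of the 7 activators (all but WRI1) and the highest in 2 of the 3 repressors (VAL1 and PKL). Over all features, it was the lowest untreated array in 40.3 % and the highest in 21.7 %. Of these 6 activators, 4 had untreated values under 4, where the order of values says little, which leaves ABI3 and ABI4. Without this array the log2 fold change of ABI4 was 0.18, and that of VAL1 was 1.13. The 5 genes whose profile over the 6 arrays was closest to that of ABI3, a likeness fixed by this choice, were AT4G22990, U2AF35B (AT5G42820), AT1G75800, AT3G27870 and AT1G19396, at a root mean squared difference of 0.0902, 0.116, 0.116, 0.141 and 0.151 log2 units after centring. Their log2 fold changes of 1.65 to 1.80 are fixed by the same choice, so that a test of them adds nothing. U2AF35B passed it (log2 fold change 1.76, limma adjusted p = 0.0088), and the others had an adjusted p of 0.013 to 0.030. The 5 genes closest to WRI1, chosen in the same way, were AT2G44760, AT3G49310, SHM7, AT1G67720 and ARC6. WRI1 lay on the floor with a nearly flat profile, so that likeness to it says little. These genes had log2 fold changes of -0.03 to 0.07.

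Most of the seed genes that ABI3, FUS3 and LEC2 are known to activate had larger differences than ABI3 itself. Of 16 such genes (storage proteins, oleosins, EM proteins, PER1 and HSFA9), 10 rose in PEG, all of them past both limits, 6 did not pass, and none fell. Over all features 7.46 % rose, 8.24 % fell, and 1.15 % were called with a rise. The median log2 fold change was 4.14 for the 16 genes and 0.00 for all genes. EM1 and EM6, LEA proteins of the late embryo, rose 68.7-fold and 54.3-fold. The cruciferins CRU1 and CRU3 rose 85.7-fold and 34.2-fold, and the albumin SESA5 rose 38.4-fold.

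Among the proteins that coat oil bodies, OLEO1 rose 60.8-fold, OLEO2 83.0-fold, OLEO3 4.63-fold and OLEO4 9.05-fold. PER1, a seed peroxiredoxin, rose 40.2-fold. OLEO4 and PER1 lay under 4 on all untreated arrays, so these values understate the rise. OLEO2, SESA5 and EM6 each had 1 untreated value under 4, and without the floor they rose 90.4-fold, 39.3-fold and 55.3-fold. The remaining 6 genes did not pass and are named here with their values known. CRU2 had log2 values of 7.25, 5.03 and 4.89 in PEG, against 3.02, 3.63 and 3.24 in untreated seeds, with 1 PEG array far above the others (limma adjusted p = 0.18, and 0.0072 without the floor). SESA1, SESA2 and SESA3 had log2 fold changes of -0.08, 1.20 and -0.04. SESA4 lay under 4 on all arrays. These albumins are close relatives in tandem, and the array may not separate them. HSFA9, a heat shock factor that ABI3 controls, lay under 4 on all 6 arrays.

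Of 10 genes that WRI1 is known to activate, most of them in glycolysis or fatty acid synthesis, 1 rose, 2 fell and 7 did not pass. Over all features 7.46 % rose and 8.24 % fell. The median log2 fold change was -0.21, against 0.00 for all genes. All PEG arrays lay below all untreated arrays for 5 of the 10 genes and above them for 2, against 25.9 and 23.6 % of all features. At an unadjusted p under 0.05 (limma) stood 7 of the 10, against 38.2 % of all features. PKP-ALPHA, the plastid pyruvate kinase subunit, rose to 9.99 ± 0.03 in PEG, against 9.13 ± 0.01 in untreated seeds (log2 fold change 0.85, limma adjusted p = 0.00012). MOD1, the enoyl-ACP reductase, fell to 7.37 ± 0.11 in PEG, against 8.62 ± 0.05 in untreated seeds (log2 fold change -1.25, limma adjusted p = 0.00093; SD, n = 3 each). KASI, a ketoacyl-ACP synthase, had a log2 fold change of -1.11 (adjusted p = 0.0020). With the filter on low values, 9 of these genes could be tested, of which 1 rose and 4 fell. In that fit 22.2 % of the features rose and 46.0 % passed in either direction. With the floor on all features, 1 fell without PEG replicate 1 or without untreated replicate 3. In these 2 fits 2826 and 2198 of all features passed, against 5649 with all 6 arrays.

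Of 12 further regulators of maturation, 2 rose past both limits and none fell, and 7 lay at or under 4 on all arrays. ABI5, the bZIP factor that acts with ABI3 on ABA-regulated seed genes, had log2 values of 8.94, 8.93 and 8.99 in PEG, against 5.66, 5.62 and 5.73 in untreated seeds. It rose by 3.29 on the log2 scale (SE 0.036, adjusted p = 5.2e-05 from limma), where ABI3 had 1.69. EEL, a bZIP factor of the same group, had 9.58, 9.33 and 9.28 in PEG, against 4.79, 5.04 and 5.01 in untreated seeds (log2 fold change 4.45, SE 0.12, adjusted p = 0.00020). The groups did not overlap in either gene, as in 23.6 % of all features with higher levels in PEG. Other bZIP partners had small values of either sign, with 0.52 for BZIP10 and -0.36 for BZIP53 (adjusted p = 0.030 and 0.096), and both are named with their values known. All PEG arrays lay above the untreated arrays for BZIP10 and below them for BZIP53, against 23.6 and 25.9 % of all features. With the filter on low values, 3 of the 5 genes tested rose (ABI5, EEL and BZIP10), where 22.2 % of the features tested rose.

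**Figure D4:**
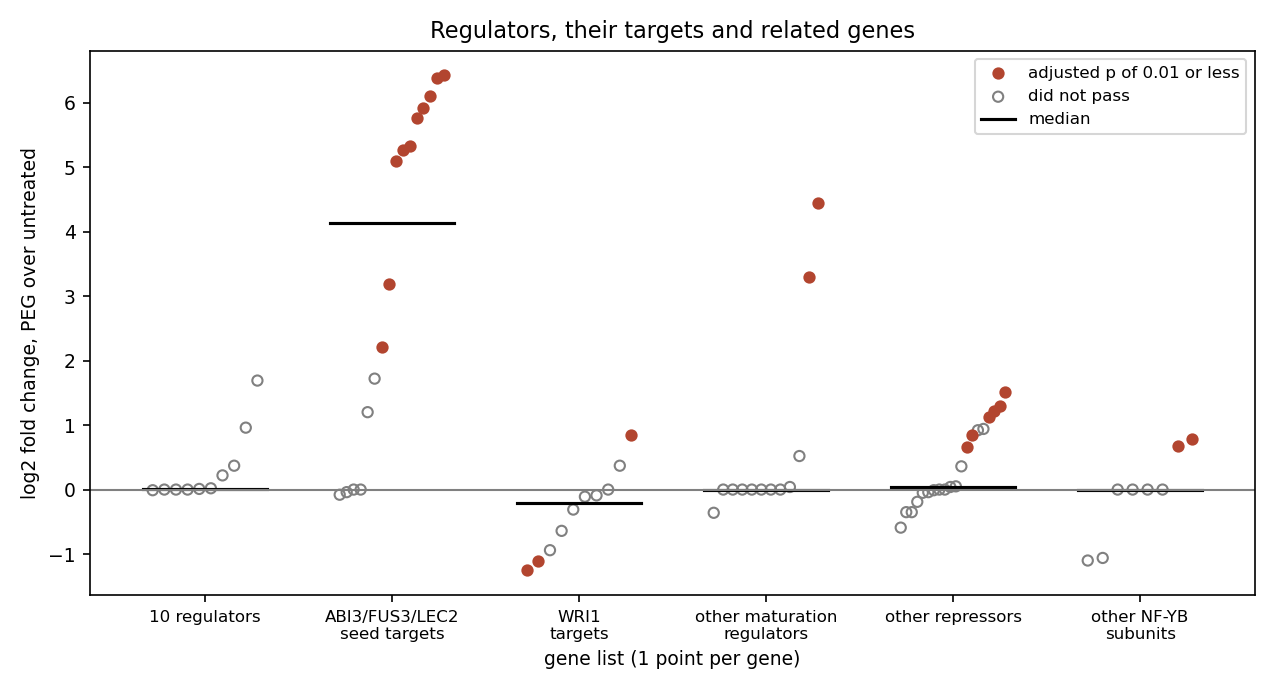
Log2 fold change of PEG over untreated seeds (vertical axis), 1 point per gene, for the 10 regulators and 5 lists of related genes. Filled points passed the test, open points did not, and bars are medians. The seed targets have a median of 4.14, whereas the medians of the other lists lie between -0.21 and 0.04. Genes at or under 4 on all arrays stand at 0 through the floor, among them 7 of the 12 other maturation regulators. Without the floor the median is 4.52 for the seed targets, and the others lie between -0.21 and 0.25.

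Other genes that hold the embryo program down were measured as 20 genes, most of them Polycomb, deacetylase, remodeler or VAL-related. Of these 20 genes, 6 rose, none fell and 14 did not pass, where 7.46 % of all features rose and 8.24 % fell. None of the 6 reached the log2 fold change of 2 needed for a call. SWN, a Polycomb methyltransferase, had 7.26, 6.80 and 6.98 in PEG, against 5.53, 5.65 and 5.30 in untreated seeds (log2 fold change 1.52 with an SE of 0.16, adjusted p = 0.0047 from limma). RING1B, a Polycomb ubiquitin ligase subunit, had a log2 fold change of 1.29, the histone deacetylase HDA19 of 1.22 and the Polycomb reader LHP1 of 1.12. The others that rose, named after their values were seen, were ASIL2 (0.84) and BRM (0.66). CLF, the other vegetative Polycomb methyltransferase of the list, had 0.36 (adjusted p = 0.14), and VAL3, a further VAL gene, lay under 4 on all arrays. CLF and VAL3 are named with their values known. The median was 0.04, against 0.00 for all genes. The number that rose was 8 of 18 tested with the filter on low values, where 22.2 % of the features tested rose. With the floor on all features it was 3 without PEG replicate 1, PEG replicate 2 or PEG replicate 3. It was 2 without untreated replicate 1 or untreated replicate 3, and 4 without untreated replicate 2. Over all features, 5649 passed with all 6 arrays and 1880 to 2965 with 1 left out.

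Outside the seed forms LEC1 and L1L, 8 NF-YB subunits were measured, of which 2 rose, none fell and 6 did not pass, where 7.46 % of all features rose and 8.24 % fell. NF-YB2 had a log2 fold change of 0.78 and NF-YB1 of 0.68 (limma adjusted p = 0.0086 and 0.0035). NF-YB8 and NF-YB10, named after their values were seen, lay lower on all PEG arrays, with -1.10 and -1.06 (adjusted p = 0.018 and 0.038). Both passed with the filter on low values (in which 46.0 % of the features tested passed), without the floor (26.7 %) and with the trended prior. With 1 array left out, 1 subunit rose without PEG replicate 2 and 0 without any of the other 5 arrays, but 2 rose each time when the filter was added. Over all features, 1880 to 2965 passed with 1 array left out, against 5649 with all 6, and 7606 to 8969 when the filter was added.

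Markers of other tissues were read beside these results. Endosperm cells are known to express some of the seed genes above. Of 4 endosperm markers, MAN7 rose (log2 fold change 2.88, limma adjusted p = 0.00060), EPR1 had -0.98 (adjusted p = 0.029), EXPA2 had 0.47 (adjusted p = 0.051) and ZOU lay under 4 on all arrays. EPR1, EXPA2 and ZOU are named, with their values known, to complete the list. The summed linear level of all 4 endosperm markers, MAN7 included, was 957 to 1110 in PEG and 612 to 671 in untreated seeds. Its part in the results was not tested. All 3 seed coat markers lay under 4 on every array, with a summed linear level of 8.80 to 10.6 in PEG and 8.03 to 12.9 in untreated seeds. Of the 4 root hair markers 3 lay under 4 on every array and none passed, with a summed linear level of 31.3 to 37.5 in PEG and 38.8 to 55.3 in untreated seeds.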

How the data were processed

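Total RNA (50 ng per array) of 3 pools of PEG-incubated and 3 pools of untreated seeds was labelled with biotin and hybridised to Affymetrix arrays. The authors deposited log2 expression values, 1 per gene model, and the submitters' processing notes name RMA. Probe definition and build are not given in the sources used here for these arrays. No further normalization was applied. Values under 4 were set to 4, also in the fits with the filter on low values. The groups of the labels entered limma (version 3.58.1, R 4.3.3) without a covariate, through lmFit and eBayes, with p adjusted over all 35986 features. Python 3.11.15 with pandas 2.3.3 and scipy 1.17.1 served for counts and for exact tests. A gene with several features is represented by its brightest, by the mean over the 6 arrays. Symbols and overlaps come from the TAIR10.1 gene table, in which 27241 loci matched.

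The 10 regulators, the 8 lists of related genes and markers, and the tests were chosen with earlier results of these data known. Named are all 10 regulators, list genes past both limits or otherwise up to 4 that passed with the largest change, and the 5 genes closest in profile to ABI3 and to WRI1. Any further name is marked as given with its values known. The alternatives were no floor, a floor of 5, the filter on low values, quantile normalization, centring on array medians, 1 feature per gene, a trended and robust prior, a limit on p of 0.05, a log2 fold limit of 1, the replicate number as a block and each array left out. The filter with each array left out, or with a fold limit of 1, was added after the data were seen. The procedure was also run on simulated data, and no outcome of that run is given here. The labels name biological replicates, whose number limits the precision. No sequences of the regulators were used here.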

Additional observations from a re-analysis of the deposited data

How the results depend on the processing

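The direction of ABI3 and VAL1 was the same in every setting run, and their side of the limit of 0.01 differed between settings. Of the 10 regulators, none passed in the reported setting, 3 passed without the floor, 2 with the filter on low values, 2 with the trended and robust prior and 2 at an adjusted p of 0.05. Leaving out 1 array gave 0 to 1, and with the filter added 2 each time. With a fold limit of 1 and the filter, 1 of the 6 regulators tested was called (ABI3), where 22.4 % of the 22468 features tested were. WRI1, which did not pass anywhere, had -0.01 in the reported setting but 0.01 without the floor, 0.16 after quantile normalization, 0.05 after centring, and -0.06 to 0.04 with 1 array left out, with or without the filter (0.04, 0.03 and 0.02 without PEG replicate 3, untreated replicate 1 and untreated replicate 2). PKL had -0.10 to 0.12 with 1 array left out, with or without the filter (-0.10 without untreated replicate 3 and -0.04 without PEG replicate 3). Over all features, 5649 passed in the reported setting, 9624 without the floor, 10346 with the filter, 11435 with the trended prior, 10763 at 0.05, 1880 to 2965 with 1 array left out, and 7606 to 8969 with the filter added (8621 without PEG replicate 1). Deviations from the group means had r of -0.0558, 0.139 and 0.107 between same-numbered arrays, and of -0.193 to 0.155 between the others. Not every array correlated best with its own number. With 3 arrays per group, these values cannot decide whether same-numbered arrays are paired. With the replicate block, 73 features passed in all, with adjusted p of 0.11 for ABI3 and 0.097 for VAL1. The block left 0 seed targets and 1 further maturation regulator that rose, 0 WRI1 targets in either direction, and 0 repressors and 0 NF-YB subunits that rose.

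Seed targets that rose numbered 8 to 11 with 1 array left out. Over all features, 5649 passed with all 6 arrays, 1880 to 2965 with 1 left out, and 7606 to 8969 with the filter added. On all 6 arrays, the filter left 9 WRI1 targets, 18 other repressors and 4 NF-YB subunits to test. Of the features tested, 22.2 % rose with the filter, 11.6 % without the floor and 14.6 % at a limit of 0.05. In either direction these shares were 46.0, 26.7 and 29.9 %. For WRI1 targets, 2 rose at 0.05, and 4 fell with the filter or the trended prior, 1 to 2 with 1 array left out and 2 to 4 with the filter added. For the other repressors, 2 to 4 rose with 1 array left out and 6 to 8 with the filter added, and 1 (FIE, named with its values known) fell with the filter, the trended prior or a limit of 0.05, and 0 to 1 with the filter and 1 array left out. For the NF-YB subunits, 1 rose with a floor of 5 and 0 to 1 with 1 array left out, while 3 fell without the floor, 2 with the filter, the trended prior or a limit of 0.05, 0 to 1 with 1 array left out and 2 with the filter added. The cause of these shifts was not tested. The filter leaves fewer features to test, and the unadjusted p moved as well. It was 0.00634 for ABI3 and 0.00659 for VAL1 in the reported setting, and 0.000103 and 0.000368 with the filter (limma). At low levels, FUS3, LEC2, LEC1 and most values of L1L are limited by the floor.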
